A study of Mus musculus with 4 samples.

Results

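The 9 genes described here encode inflammatory ligands and proteins of the NF-kB response: Ccl3, Ccl4, Il1a, Il1b, Tnf, Nfkbia, Nfkbiz, Tnfaip3 and Cd83. They were taken by symbol from the 22690 genes of a deposited table of normalized counts, and each symbol matched 1 row. They were chosen by the same normalized counts that are given below, because these differ between the groups and also between the numbers in the column names. Both differences are therefore descriptions, with no test. All 9 passed the filter used for testing, a mean of 10 or more normalized counts over the libraries. The RNA came from C57BL/6 mouse retinas of postnatal day 2, from flow-sorted 4N cells, that is, cells that hold a doubled genome. The 2 wild-type libraries were made from GFP-negative cells. The 2 libraries of the Casz1 conditional knockout (cKO) were made from GFP-positive cells, so sorted fraction and genotype cannot be told apart. Casz1 encodes a zinc finger transcription factor; the sources used here do not name the Cre driver, the deleted part or the number of animals per library. The labels do not say whether the libraries came from separate animals, so the p-values given for other genes measure only the spread between these libraries. Cells of both groups came from fresh retinas and were held briefly in medium that lacked serum. Each column name carries 1 of 2 numbers, shared by 1 library of each group. Nothing in the labels says what the numbers stand for, and they are written here as tags A and B.

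NF-kB is a family of dimeric transcription factors held in the cytoplasm by IkB proteins. Signals through Toll-like, interleukin-1 and TNF receptors lead to phosphorylation and breakdown of IkB, and the freed dimers switch on genes for cytokines, chemokines and their own inhibitors. In the retina, as in the brain, microglia are the resident macrophages and a main source of these ligands, and they can begin to transcribe them when tissue is dissociated. The inhibitors, by contrast, are used by many cell types.

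The promoters of the genes are shown first, because binding of NF-kB next to a start site is the textbook link among them. RefSeq windows on GRCm38.p6 were at hand for 6 of the 9 genes (7 windows, since Tnfaip3 has a pair of starts). The 250 bases before each start site were searched on both strands for the kappaB consensus, for GGNNNTTCC, which overlaps it, and for TATAAA. The kappaB consensus was found in 3.90% of all 32851 windows of that length, GGNNNTTCC in 15.7% and TATAAA in 12.4%. Nfkbia and Tnfaip3 held the consensus. Nfkbia, Tnfaip3 and Tnf held GGNNNTTCC. TATAAA lay at −32 in Il1a, −31 in Il1b and −29 in Tnf, counted from the base before the start as −1, and at −225 in Tnfaip3. The sequences below read 5′ to 3′ up to the base before the start site, with matches to any of the 3 motifs in capitals. For Tnfaip3 only the last 30 bases are given, which lie in an exon of a longer GENCODE transcript. All are on the minus strand: Nfkbia at chr12:55492648-55492837, Tnfaip3 at chr10:19015411-19015440, Tnf at chr17:35202008-35202227, Il1b at chr2:129371140-129371199, Il1a at chr2:129309973-129310032 and Ccl3 at chr11:83649379-83649438.
Nfkbia: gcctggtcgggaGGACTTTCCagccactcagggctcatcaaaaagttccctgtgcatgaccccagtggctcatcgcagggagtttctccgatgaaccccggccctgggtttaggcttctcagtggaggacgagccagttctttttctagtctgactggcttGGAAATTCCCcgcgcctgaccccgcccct
Tnfaip3: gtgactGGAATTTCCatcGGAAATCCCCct
Tnf: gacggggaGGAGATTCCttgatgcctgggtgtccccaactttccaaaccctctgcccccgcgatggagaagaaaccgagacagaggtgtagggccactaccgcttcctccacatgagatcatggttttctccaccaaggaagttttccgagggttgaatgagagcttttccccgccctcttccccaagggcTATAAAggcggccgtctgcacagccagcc
Il1b: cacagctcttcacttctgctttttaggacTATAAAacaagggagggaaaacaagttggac
Il1a: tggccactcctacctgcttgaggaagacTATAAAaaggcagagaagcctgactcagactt
Ccl3: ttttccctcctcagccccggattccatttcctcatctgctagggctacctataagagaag
A match describes the letters only. Within these windows the inhibitor genes Nfkbia and Tnfaip3 carry the kappaB letters close to the start, at −29 to −20 and at −12 to −3. Tnfaip3 holds a further match at −125 to −116, and the window of its other start holds none. Il1a and Il1b share a TATAAA at nearly the same distance.

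Casz1 itself had normalized counts of 13162 and 11995 in wild type A and B and of 8687 and 10772 in cKO A and B. These counts cover the whole gene, and with the deleted part unknown they do not check the deletion. The libraries held 75832360 and 83753377 reads in genes in wild type A and B, and 22326119 and 89473701 in cKO A and B. The cKO library A was the shallowest and the least like the others, with Pearson correlations across genes of 0.902 to 0.918 against 0.988 to 0.993 among the rest. A normalized count of 8.38 stands for 3 reads there, the limit that a count of 0 allows, against 1.98 to 2.28 in the others. Such limits and the intervals below cover counting error only. Retinal progenitor markers (10 of 10 tested, such as Pax6 and Ccnd1) summed to 430554 to 612748 per library, and S and G2/M phase genes such as Mki67 and Top2a were present in all 4. Both lists go with the label of 4N retinal cells. Photoreceptor markers such as Crx and Otx2 were present as well, at summed levels of 136263 to 150403 in wild type and 86856 to 103947 in cKO.

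All 9 genes had the same outline across the libraries. Every one was highest in wild type B and lowest in cKO A, and every one was lower in cKO than in wild type at each tag, as were 36.6% of the 14480 genes tested. Every one was also higher at tag B than at tag A in each group, as were 33.8% of the genes tested, and 20.5% did both. The counts for the 9 genes follow from how they were picked. Across the groups, 6 genes had both cKO libraries below both wild-type libraries (22.3% of genes tested), and in Cd83, Ccl3 and Il1b the groups overlapped because cKO B exceeded wild type A. Without wild-type library A, or without cKO library B, the count was 9. Across the tags, 3 genes (Cd83, Ccl3 and Il1b) had both B libraries above both A libraries (22.9% of genes tested).

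**Figure D1:**
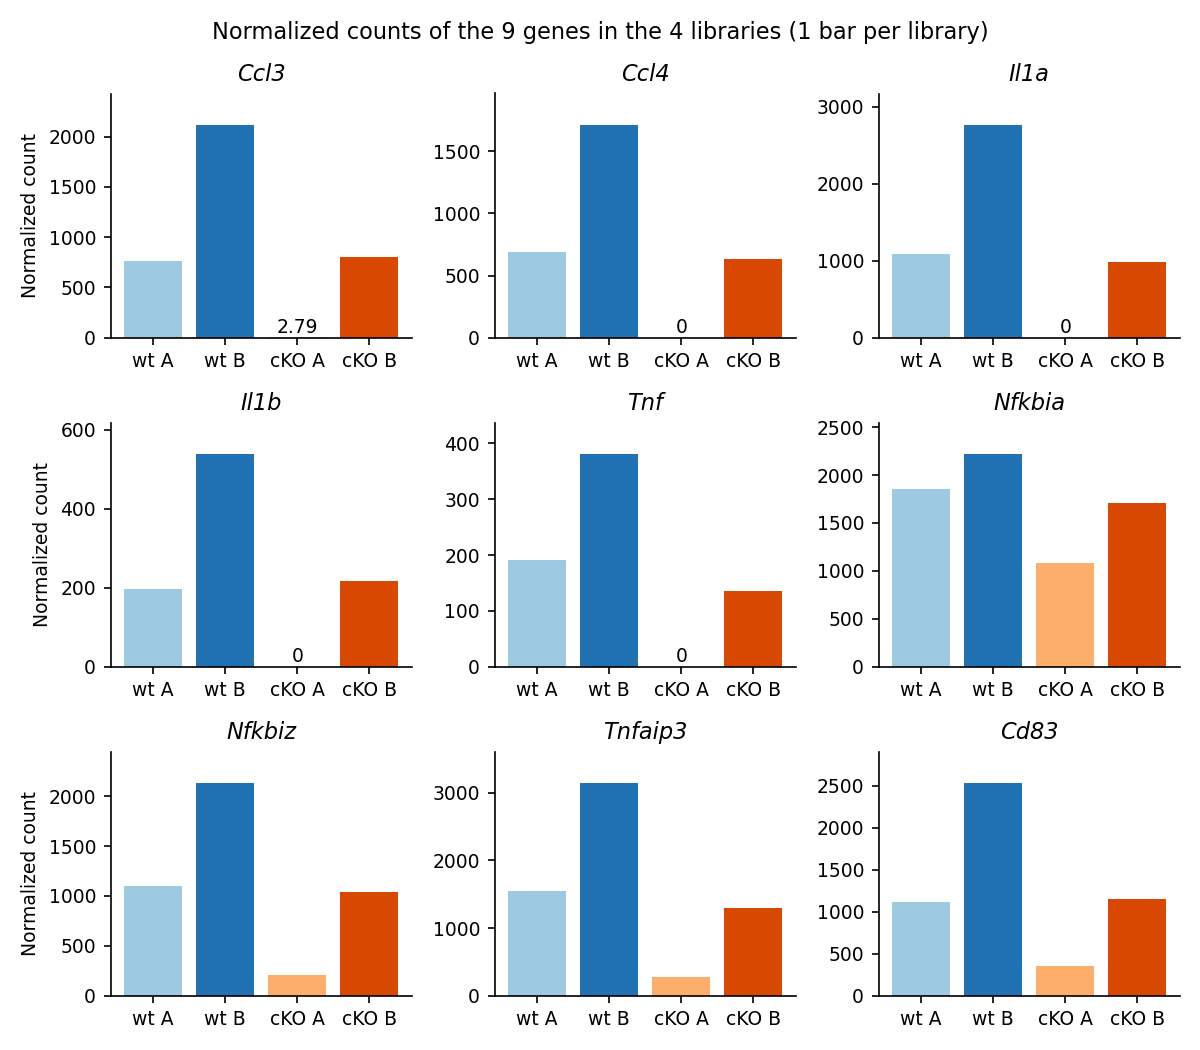
Normalized counts of the 9 genes, 1 panel per gene and 1 bar per library, on linear axes that start at 0 and differ between panels. Wild type B is the highest bar in every panel, cKO A is the lowest, and Ccl4, Il1a, Il1b and Tnf are at 0 there.

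The chemokines Ccl3 and Ccl4, which attract leukocytes, are neighbours on chromosome 11. Ccl3 (83647844 to 83649355 of GRCm38, minus strand) and Ccl4 (83662584 to 83664683, plus strand) lie 13229 bases apart with no coding gene between them in GENCODE M21. Ccl3 had normalized counts of 767 and 2113 in wild type A and B and of 2.79 and 799.9 in cKO A and B. Ccl4 had 691 and 1710 in wild type and 0 and 633 in cKO. Wild type B stood above all other libraries, cKO B lay close to wild type A, and cKO A was nearly or wholly without reads, with 1 read of Ccl3 and 0 of Ccl4. At tag B the cKO level was 37.9% of wild type for Ccl3 (95% exact counting interval 35.4 to 40.5) and 37.0% for Ccl4 (34.3 to 39.9). At tag A the Ccl3 level was 0.364% of wild type (0.00922 to 2.03, from that 1 read), and Ccl4 was at least 82.4-fold lower. The pair kept nearly the same proportion where both were detected, with a Ccl3 to Ccl4 ratio of levels per kilobase of exon of 0.956, 1.06 and 1.09 in wild type A, wild type B and cKO B.

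The interleukin-1 genes, whose proteins act on the same receptor IL1R1, lie side by side on chromosome 2. Il1a occupies 129299610 to 129309972 and Il1b 129364570 to 129371139, both on the minus strand of GRCm38, with 54598 bases between them. Il1a had normalized counts of 1088 and 2757 in wild type A and B and of 0 and 979 in cKO A and B. Il1b had 196 and 538 in wild type and 0 and 217 in cKO. Il1a followed the order of Ccl4, with cKO B just below wild type A, and Il1b that of Ccl3, with cKO B just above it. At tag B the cKO level was 35.5% of wild type for Il1a (33.4 to 37.7) and 40.3% for Il1b (35.3 to 45.9). At tag A, Il1a was at least 129.8-fold lower in cKO and Il1b at least 23.4-fold lower; the smaller bound of Il1b reflects its lower level in wild type. Per kilobase of exon, Il1a was 5.37, 4.95 and 4.36 times Il1b in wild type A, wild type B and cKO B. Each of these genes overlaps an antisense transcript in GENCODE, Gm14023 for Il1a and Il1bos for Il1b. The sources used here do not say whether counting used strand, and without it reads of either strand cannot be told apart.

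Tnf, the founding ligand of the TNF family (chromosome 17, 35199381 to 35202007, minus strand), had the lowest mean level per kilobase of exon in wild type, next to Il1b. It had 191 and 380 normalized counts in wild type A and B and 0 and 135 in cKO A and B. Both cKO libraries lay below both wild-type libraries. The cKO level was 35.5% of wild type at tag B (30.1 to 41.7), and at tag A it was at least 22.8-fold lower. Together the 5 ligand genes had 3863 and 10863 reads in wild type A and B, 1 read in cKO A and 4180 in cKO B. Of the 9 genes, 4 were thus at 0 in cKO A, where 1.25% of the genes with at least 100 normalized counts in wild type A were at 0.

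Nfkbia encodes IkB-alpha, the inhibitor that holds NF-kB in the cytoplasm and is itself induced by it (chromosome 12, 55489410 to 55492647, minus strand). Its normalized counts were 1856 and 2216 in wild type A and B and 1084 and 1713 in cKO A and B. It varied least of the 9 genes, and the groups did not overlap. The cKO level was 58.4% of wild type at tag A (52.4 to 65.1) and 77.3% at tag B (73.4 to 81.4). Nfkbiz encodes IkB-zeta, a nuclear member of the IkB family that is needed for some secondary NF-kB targets (chromosome 16, 55811375 to 55838899, minus strand). It had 1099 and 2130 in wild type and 207 and 1036 in cKO, again with no overlap of the groups. The cKO level was 18.8% of wild type at tag A (14.7 to 23.8) and 48.6% at tag B (45.7 to 51.7).

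Tnfaip3 encodes A20, a ubiquitin-editing enzyme that ends NF-kB signalling (chromosome 10, 19000910 to 19015657, minus strand). It had normalized counts of 1541 and 3138 in wild type A and B and of 279 and 1301 in cKO A and B, and the groups did not overlap. The cKO level was 18.1% of wild type at tag A (14.7 to 22.2) and 41.5% at tag B (39.3 to 43.7). Cd83, a surface protein of activated antigen-presenting cells and an NF-kB target (chromosome 13, 43784775 to 43803132, plus strand), had 1118 and 2527 in wild type and 358 and 1152 in cKO. Its groups overlapped, since cKO B was slightly above wild type A. The cKO level of Cd83 was 32.0% of wild type at tag A (26.5 to 38.4) and 45.6% at tag B (43.0 to 48.3).

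The 9 genes split at tag A and stayed together at tag B. At tag B, 8 of 9 were at or below 50% of wild type in cKO (2.69% of genes tested), within 35.5% to 48.6%, and Nfkbia was the exception. At tag A, 8 of 9 were at or below 50% as well (17.9% of genes tested). There the 4 genes that encode no ligand kept 18.1% to 58.4% of the wild-type level, from 74 to 388 reads each, while the 5 ligand genes had 1 read in all. The group means tell less, since the cKO libraries differed so much: the mean of Il1a was 1923 ± 1181 (SD, n = 2) for wild type against 489.6 ± 692 (SD, n = 2) for cKO. For Tnfaip3 the means were 2340 ± 1129 and 790.2 ± 722 (SD, n = 2). The median log2 fold change of the 9 genes, a difference of means of log2(normalized count + 1), was −4.46, against −0.03 over all genes tested. That median rests on genes at 0 in cKO A and is set in part by the added 1. Within tags it was −7.59 at A and −1.31 at B, against −0.05 and 0.00 over all genes tested.

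**Figure D2:**
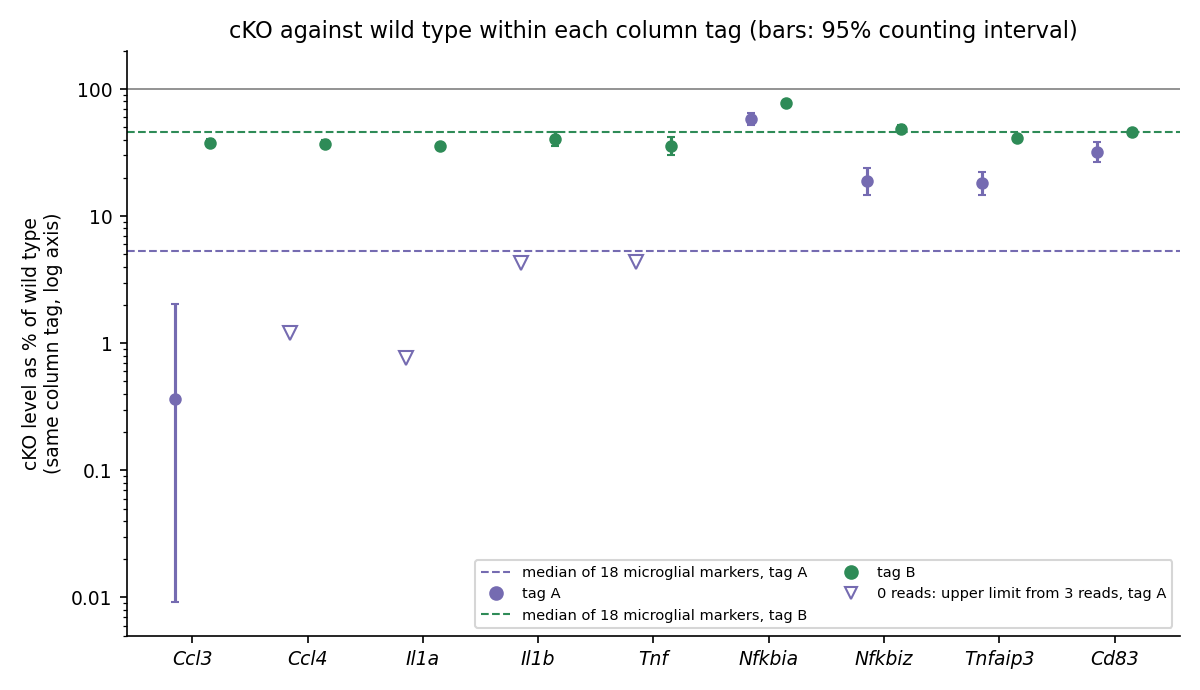
Level in cKO as a percentage of wild type with the same tag, on a log axis, for each of the 9 genes; bars are 95% counting intervals and open triangles are upper limits from 3 reads where cKO A had 0. At tag B 8 genes lie between 35.5% and 48.6%, near the dashed median of 18 microglial markers (45.7%). At tag A the points or limits of the 5 ligand genes lie below the marker median (5.31%) and the other 4 genes above it. Single markers ran from 0 to 25.5% at tag A, and the 95% counting interval of Tnf, not drawn, reaches 5.43%.

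Within wild type alone, 6 of the 9 genes were at least 2 times higher at tag B than at tag A (2.22% of genes tested), and the ratio ran from 1.19 for Nfkbia to 2.76 for Ccl3, with a median of 2.26. Il1b had 2.75, Il1a 2.53, Ccl4 2.47, Cd83 2.26, Tnfaip3 2.04, Tnf 1.99 and Nfkbiz 1.94. The ligands and the other genes overlapped in this ratio. In cKO the ratio was 1.58 for Nfkbia, 3.22 for Cd83, 4.66 for Tnfaip3 and 5.01 for Nfkbiz. For Il1a it was at least 116.8 and for Tnf at least 16.1.

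Levels between genes were compared per kilobase of GENCODE exon. In wild type the order of the mean levels per kilobase was Ccl3 (1880 ± 1242, SD, n = 2), Ccl4 (1819 ± 1092), Nfkbia (1265 ± 158), Il1a (974 ± 598), Cd83 (708 ± 387), Tnfaip3 (324 ± 156), Nfkbiz (322 ± 145), Il1b (192 ± 127) and Tnf (174 ± 81.5). The ranges of neighbours in this order overlapped, except that Cd83 (435 to 982) began just above the end of Tnfaip3 (213 to 434). The difference of those 2 means was still within 1 SD of Cd83. In cKO A the order per kilobase began with Nfkbia at 673, then Cd83 at 139, Nfkbiz at 41.2 and Tnfaip3 at 38.7, with Ccl3 at 3.65.

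Microglial markers were lower in cKO, as the 9 genes were, but in wild type their sum was nearly the same at both tags. All 18 markers of a list that included Csf1r, Cx3cr1, P2ry12 and C1qa were lower in cKO at both tags. The share over all genes tested was 36.6%. In limma over all genes 0 of 18 passed, and edgeR and DESeq2 also called 0. An unadjusted p under 0.05 in limma was found for 14 of 18, against 274 of the 14480 genes tested. The summed normalized count of the 18 markers was 28656 and 27774 in wild type A and B and 2571 and 13026 in cKO A and B. That is 8.97% of wild type at tag A and 46.9% at tag B. Csf1r, the survival receptor of microglia, had 6021, 4788, 346 and 2293 in wild type A and B and cKO A and B. Aif1, P2ry13 and Siglech were at 0 in cKO A. In wild type the summed markers at tag B were 0.969 times those at tag A, and single markers ranged from 0.642 to 1.60, where the summed 9 genes went from 8546 to 17510. In bulk RNA, fewer cells of a type and less RNA per cell cannot be told apart, and the part of the markers in the differences of the 9 genes was not tested.

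**Figure D3:**
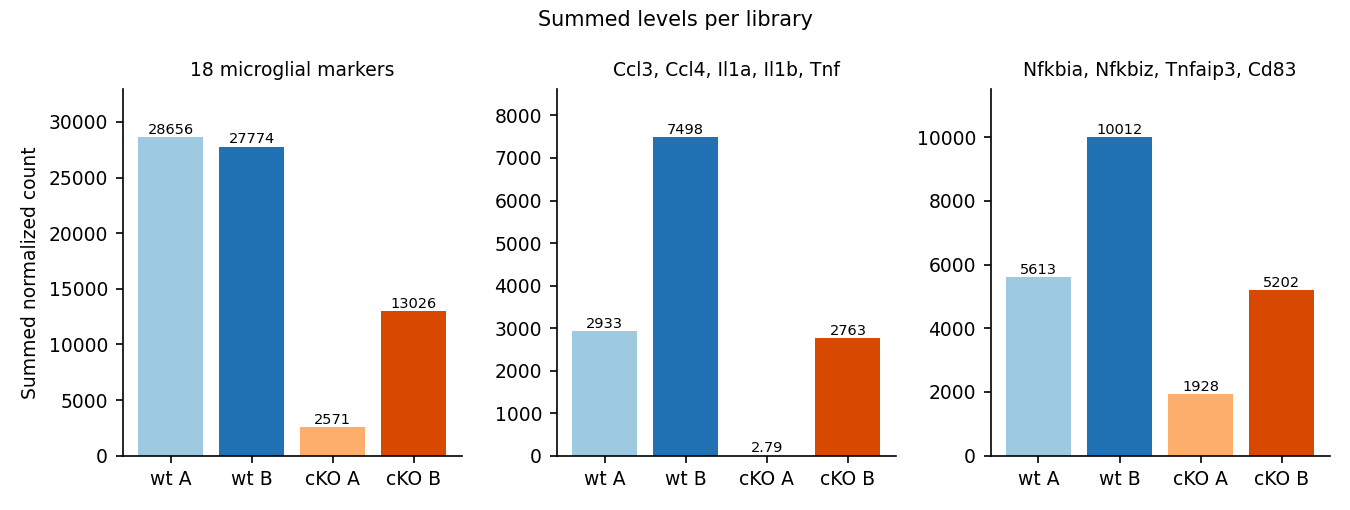
Summed normalized counts per library of 18 microglial markers, the 5 ligand genes and the 4 other genes, on linear axes from 0. The markers are alike in both wild-type libraries (28656 and 27774) while the ligand genes go from 2933 to 7498, and in cKO A the markers keep 2571 while the ligand genes are at 2.79.

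Set against the markers in the same library, the ligand genes summed to 10.2% of the marker sum in wild type A, 27.0% in wild type B, 0.109% in cKO A and 21.2% in cKO B. The 4 other genes summed to 19.6%, 36.0%, 75.0% and 39.9% in the same order. So at tag B the ligands per marker in cKO were 0.786 times those in wild type and the other genes 1.11 times. At tag A the ratios were 0.0106 and 3.83. Nfkbia alone made up 42.2% of the marker sum in cKO A. Each of the 4 other genes was lower in cKO A than in wild type A, but by less than the marker sum was. At the wild type A proportion, the marker level of cKO A would go with 94.2 reads of the 5 ligand genes, where 1 was counted, and with 34.9 of Il1a alone. On the log2 scale the median difference of the 9 genes from the marker mean was −1.46 in cKO against wild type with all libraries. Without cKO library A it was 0.53, but cKO B is then set against wild type of both tags, which mixes group with tag. Within tags the median was −2.76 at A and −0.12 at B. At A the 5 ligand genes lay at −5.26 to −2.76 and the 4 other genes at 2.37 to 4.06. The median at A is the value of Tnf, which was at 0 in cKO A. It and the −1.46 are therefore set in part by the added 1. Summed, the 9 genes per marker in cKO were 2.52 times those in wild type at A and 0.970 times at B.

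Markers of other immune cells were scarce. Border macrophage markers summed to 60.7 and 56.6 in wild type A and B and to 0 and 7.93 in cKO A and B, with 1 of 7 (Mrc1) past the filter. Neutrophil and monocyte markers summed to 315 and 346 in wild type and to 33.5 and 117 in cKO, of which Csf3r, a receptor also found on microglia, made up 302, 333, 33.5 and 109. Ly6g, Mpo and Plac8 were at 0 in every library. Lymphocyte markers summed to 203 and 252 in wild type and 50.3 and 182 in cKO, mostly Cd4 and Cd8a, with Cd3g at 0 throughout. Of the endothelial markers, Kdr had 42492 and 37659 in wild type A and B and 48371 and 38675 in cKO A and B, nearly all of the list's sum. The rest of that list was far lower: Cldn5 had 771, 675, 883 and 639 in the same order, Pecam1 had 84.3, 59.4, 0 and 42.3, and Cdh5, Tek and Emcn were also at 0 in cKO A. Retinal astrocyte markers such as Gfap and Pdgfra summed to 1158 to 1773 in wild type and 775 to 791 in cKO. In these lists, as in those of progenitors, photoreceptors and cell cycle, 0 genes passed in limma over all genes, and DESeq2 called 1, the photoreceptor gene Nr2e3.

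Of the rest of the pathway, 7 lists of 129 genes were examined, of which 110 passed the filter on low values. None passed in limma over all genes, where 0% of 14480 were called, and edgeR and DESeq2 also called 0 of them. With limma, 3 had an unadjusted p under 0.05, against 274 of the 14480 genes tested. Those 3 were Csf1 and Ier3, lower in cKO, and Fos, higher; Ier3 is named because the count is small, after its values were seen. Of the 110 genes, 39 were lower in cKO at both tags and higher at B in both groups, against 20.5% of all genes tested. A gene with few reads passes the filter mainly through its high group, so these counts describe the lists only.

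Transcripts of the NF-kB subunits and of the signalling cascade differed in how far apart the groups lay. Among the 9 subunit and IkB genes the cKO level ran from 11.0% to 199% of wild type at tag A and from 39.2% to 104% at tag B. Among the 22 cascade genes it ran from 0 to 213% at tag A and from 55.6% to 105.0% at tag B. Some ends of these ranges rest on few reads. The 199% is Bcl3, from 13 reads in cKO A. The 0 is Irak3 and Ikbke, with 23.5 and 31.1 normalized counts in wild type A, and Irak3 also gave the 55.6%. Nfkb1, the p105 and p50 precursor gene, had 2650 and 2775 normalized counts in wild type A and B and 2068 and 2408 in cKO A and B. Rela, encoding p65, had 2574, 2144, 2123 and 2101 in the same order. Over the 9 subunit and IkB genes the median log2 fold change was −0.15, with 6 lower and 3 higher. Nfkbid, another nuclear IkB gene, had the outline of the 9 genes with 380, 781, 41.9 and 306; it was picked out after its values were seen. The 22 genes of the signalling cascade had a median of −0.17, with Map3k7 (TAK1) at −0.01 and Tab2, its adaptor, at −0.12. The negative regulators, 9 of 11 past the filter, had a median of −0.26, with Itch, a ubiquitin ligase that works with A20, at −0.12 and Rnf11, another partner of A20, at 0.14.

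Receptors differed more among themselves. Of 20 cytokine and Toll-like receptor genes, 15 passed the filter, 11 of them lower in cKO, and the median log2 fold change was −3.46 overall and −1.16 at tag B; 14 of the 20 were at 0 in cKO A, where 9179 of all 22690 genes were at 0, and 2 of those 14 were at 0 in wild type A as well. Tnfrsf1a, the widely expressed TNF receptor, had normalized counts of 1281 and 1028 in wild type A and B and 1601 and 937 in cKO A and B. Tlr2, a receptor for bacterial lipopeptides, had 545, 1155, 25.1 and 427 in the same order. The 8 genes of cytokine processing and release had a median of −1.81 overall and −0.49 at tag B. Both medians over all libraries, for the receptors and for this list, rest in part on genes at 0 in cKO A. They are therefore set in part by the added 1. In that list Adam17, the protease that sheds TNF, had 3132, 2805, 2543 and 2533, and Rhbdf2, which carries ADAM17 to the surface, had 676, 748, 237 and 596.

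The last lists held other inflammatory targets and immediate-early genes, and whether these lists differ from each other was not tested. Of 35 further NF-kB and inflammatory targets 23 passed the filter, 18 of them lower in cKO, and the median log2 fold change was −1.11, or −1.01 within tag B. Sod2, a mitochondrial superoxide dismutase, had 5043 and 5101 normalized counts in wild type A and B and 5828 and 5037 in cKO A and B. Csf1, the growth factor of microglia, had 1862, 2908, 964 and 1634 in the same order, or −0.89 ± 0.35 on the log2 scale (standard error; limma, adjusted p = 0.771). Immediate-early genes, which many cells induce during dissociation, had 16 of 24 higher in cKO, with a median of 0.33 and of 0.12 at tag B. Fos had 106149, 145793, 231467 and 176065, or 0.70 ± 0.27 on the log2 scale (standard error; limma, adjusted p = 0.771), and Egr1, a zinc finger factor, had 111450, 155689, 183211 and 170454. In wild type the summed immediate-early genes at tag B were 1.19 times those at tag A.

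**Figure D4:**
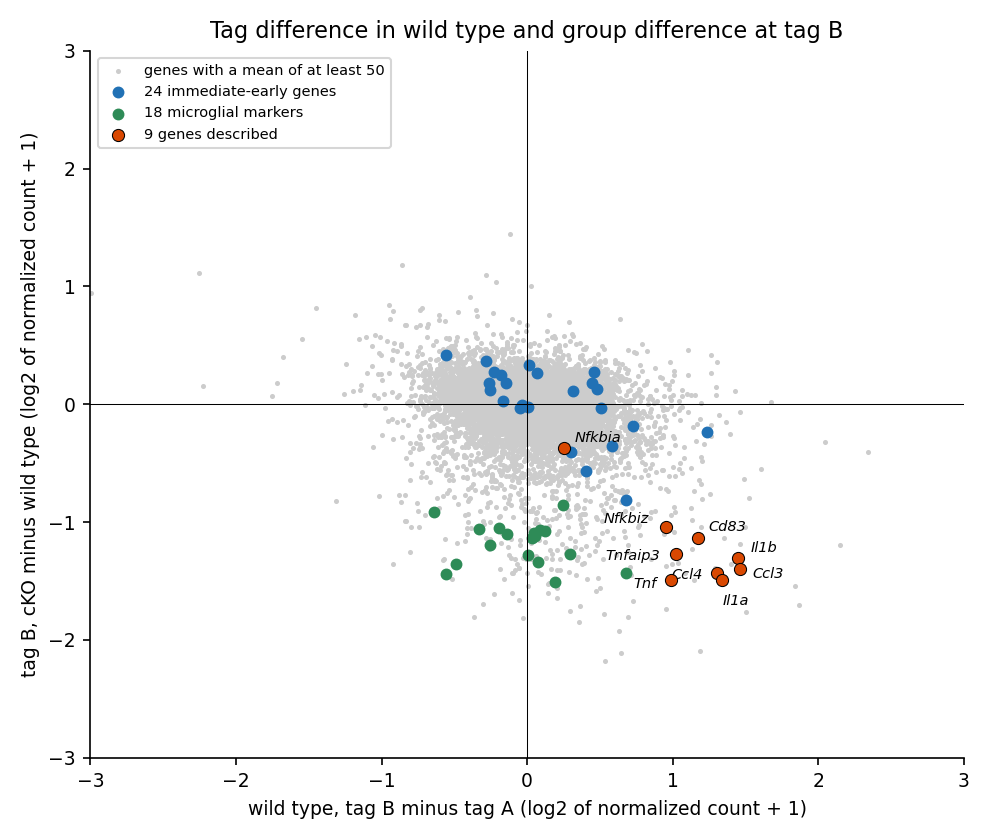
Each point is a gene whose mean over the libraries is 50 normalized counts or more; the x axis is the log2 difference between tags in wild type and the y axis the log2 difference between cKO and wild type at tag B (log2 of normalized count + 1). Both axes use wild-type library B, so a high value there pushes a point to the right and down at once; all 9 genes lie to the right of and below 0, Nfkbia nearest to the centre, the 18 microglial markers (green) lie low around the centre line, the 24 immediate-early genes are in blue, and 1 gene falls outside the axes.

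The genes whose profile was most like the average of the 9 were found by the root mean square difference of mean-centred log2(normalized count + 1) over the 4 libraries, among 12435 genes with a mean of at least 50. They were, from the nearest, Upk1a (0.118), Hhex (0.145), Plek (0.151), Tnfaip2 (0.194), Tnfrsf11a (0.255), Fcer1g (0.264), C3ar1 (0.275) and Mcmdc2 (0.282). The 9 genes themselves lay 0.834 (Tnf) to 2.21 (Nfkbia) from that average, farther than these 8. Fcer1g is one of the 18 microglial markers, and Plek and Tnfaip2 are among the inflammatory targets above. Plek, which encodes a haematopoietic signalling protein, had normalized counts of 1111 and 2722 in wild type A and B and 19.6 and 1039 in cKO A and B. C3ar1, the receptor of complement fragment C3a, had 388, 859, 11.2 and 305 in the same order. Upk1a, Hhex, Tnfaip2, Tnfrsf11a and Mcmdc2 were at 0 in cKO A and at 46.3 to 67.6 in wild type A, so their closeness depends on the added 1.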

How the data were processed

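RNA-seq of 4 libraries was deposited as 1 table. FastQC, TopHat, HTSeq, DESeq and build mm10 are named, per the submitters' processing notes, with no versions or settings. Per the file headers the values are normalized counts, a signal that the authors obtained as reads divided by a size factor per library. All values (100%) were whole reads within 0.01, so reads were recovered. Both cKO columns are headed replicate 2 and were assigned to their group only. The p-value columns in the deposited table are the authors'. Libraries of a group differed by more than sampling noise (chi-square per degree of freedom 67.0 and 113).

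With limma 3.58.1 in R 4.3.3, log2(normalized count + 1) was compared for the 14480 genes whose mean reached 10 (mean-dependent prior, two-sided, Benjamini-Hochberg, threshold 0.05), tested on simulated data first. edgeR 4.0.16 and DESeq2 1.42.0 on recovered reads, other pseudocounts, filters and scaling, a block and left-out libraries were alternatives. Beyond the 9 genes, each list names its members that passed, or else the 2 with the highest mean; 1 gene that this names is not reported here. Profile likeness left out predicted and clone names. Genes and lists were chosen with earlier results of these data known. Positions come from GENCODE M21 on GRCm38, promoters from RefSeq on GRCm38.p6; all 215 list genes matched by symbol. Counting intervals are exact conditional ones from scipy 1.17.1.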

Additional observations from a re-analysis of the deposited data

How the results depend on the processing

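The count of genes called in limma, 0 of 14480 (274 at an unadjusted p under 0.05), stayed at 0 with pseudocounts of 0.5 and 5, no filter, a mean of at least 50, median rescaling, no mean-dependent prior and edgeR (208 at an unadjusted p under 0.05). It became 1 with DESeq2 (Nr2e3, lower, adjusted p = 0.0375) and lay from 0 to 5768 with single libraries left out; a lone library is then taken to vary as much as the other group's, with 5768 calls without cKO library B and 54 without cKO library A, and the cause was not tested. The count of pathway genes, 0, ranged from 0 to 65 over left-out libraries, 65 without cKO library B (17 higher, 48 lower). With the replicate block for the shared column numbers the limma count was 0 (1375 at an unadjusted p under 0.05); the tag differences of the groups correlate at 0.258 across genes, and no label ties the numbers to an experiment. The median log2 fold change of the 9 genes was −4.46 and lay at −4.63 and −3.31 with pseudocounts of 0.5 and 5, at −1.68 in edgeR and −1.75 in DESeq2, and from −8.08 to −0.67 over left-out libraries, −0.67 without cKO library A. The median tag difference was 4.04 and ranged from 1.18 to 7.09 over left-out libraries. The median relative to microglial markers, −1.46, ranged from −3.27 to 0.53 over left-out libraries, and it was −1.87 against Csf1r alone. With a pseudocount of 5 it was −0.58. Among the alternatives run it was above 0 only without cKO library A, a fit that compares cKO B with wild type of both tags. Within tag B it was −0.12. Fold changes of single genes stayed below 0 in all alternatives run, a direction that the choice of the genes helps to fix and that filters and the block leave as it is by construction; their size did not hold, with Il1a at −5.79, −10.76 without cKO library B and −0.82 without cKO library A. Leaving out a library shifts the tag difference of a gene by exactly the residual spread of the additive fit. That spread therefore cannot judge the shift. The tag difference of Il1a was 5.64 with all libraries, 9.94 without wild-type library A and 1.34 without cKO library A. The count of 6 genes with no overlap of the groups ranged from 6 to 9 over left-out libraries, an alternative chosen after seeing the data. The 9 is fixed by wild type B being highest and cKO A lowest in each of the 9 genes. The depth of cKO library A limits what can be said of the ligand genes there to the upper limits of 3 reads.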

Other observations

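The authors' deposited table gives a p-value for 17477 genes. Of the 5213 genes without one, 18 have reads, and 4 of these are Ccl3, Ccl4, Il1a and Cd83. Among the other 14 were Nlrp3, the sensor of the inflammasome that matures IL-1 beta, with normalized counts of 200 and 732 in wild type A and B and 0 and 224 in cKO A and B. Plek, described with the genes of like profile, was another, as was Rgs1, a regulator of chemokine receptor signalling, with 326, 1171, 0 and 401 in the same order. The metallothioneins Mt1 (276, 1144, 176 and 918) and Mt2 (172, 880, 27.9 and 666), which bind zinc and copper, also lack a p-value there and were higher at tag B in both groups. Of the 9 genes described here, 5 have a p-value there. Their lowest adjusted p was 0.962 in the authors' deposited table, and 0 of the 5 were among its 51 genes under 0.05. These genes were picked out after their values were seen, and the sources used here do not say why they lack a p-value.

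Ccl2 and Ccl12, chemokine genes that also lie on chromosome 11, were highest in wild type B and lowest in cKO A. The genes of this paragraph were also picked out after their values were seen. Ccl2, which recruits monocytes, had normalized counts of 304 and 777 in wild type A and B and 0 and 354 in cKO A and B. Ccl12, a related mouse chemokine, had 51.6, 148, 0 and 71.4 in the same order, and Il6, Il10 and Ccl5 were at or near 0 in every library, with at most 3.45 in wild type B for Il6. The cytokine Osm had 165, 237, 0 and 94.5, and the RNase gene Zc3h12a, whose product degrades cytokine mRNAs, had 318, 413, 0 and 161.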
